A study of Mus musculus with 4 samples.

Results

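The genes described here are 10 transcription factors and markers of the trophectoderm (Cdx2, Eomes, Elf5, Tfap2a, Tfap2c, Gata2, Gata3, Hand1, Tead4 and Plac1), read in mouse embryonic stem (ES) cells that have or lack Klf5, a transcription factor of the Kruppel-like zinc finger family. Their probe sets were found by gene symbol, as every probe set whose platform annotation gives a single gene symbol that is on this list, which came to 20 of 45037 non-control probe sets. ES cells are lines from the inner cells of the blastocyst that grow in culture and can give rise to all tissues of the body. The study compared 2 wild-type (WT) clones with 2 Klf5 knockout (KO) clones, 1 Affymetrix array per clone, all grown in serum-containing ES medium plus LIF, a cytokine that supports self-renewal. The sources used here name no mouse strain, targeting method or feeder layer. Clones of a group were its 2 replicates, and whether they descend from separate cultures or targeting events is likewise not stated, so p-values measure the spread between these arrays.

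The trophectoderm is the outer epithelium of the blastocyst, which forms the placenta and does not contribute to the embryo proper. Tead4, held active with its co-activator Yap1 in outer cells where Hippo signalling is low, lies upstream of Cdx2 and Gata3 in the embryo, and Cdx2, Eomes, Elf5 and Tfap2c then sustain trophoblast stem cells. Embryos that lack Klf5 fail to form a normal trophectoderm, and undifferentiated ES cells hold most of these factors low, which makes the level of the set in Klf5 KO ES cells the question addressed here.

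Promoter windows are shown first because Klf5, like other Kruppel-like factors, binds GC-rich sites that often hold the letters CACCC. The RefSeq table (GRCm38.p6) held 11 windows for 7 of the 10 genes: Cdx2, Eomes, Elf5, Tfap2a, Gata2, Gata3 and Plac1. Within the 250 bases before the start, CACCC on either strand occurred in 5 of the 11 windows, beside 52.0% of the 32851 windows of all genes in the table. Gata3 and the downstream Elf5 window held 3 matches each, and Cdx2, the upstream Tfap2a window and the downstream Gata2 window held 1 each. The Eomes window, both Plac1 windows, the downstream Tfap2a window, the upstream Gata2 window and the upstream Elf5 window held none. The window of Cdx2 is printed because this gene specifies the lineage, and both windows of Elf5 because they differ in their matches, 3 against none. Capitals mark CACCC or its reverse complement GGGTG. The windows lie at chr5:147307250-147307499 (minus strand) for Cdx2, and at chr2:103411848-103412097 and chr2:103423818-103424067 (plus strand) for the upstream and downstream Elf5 starts.
Cdx2: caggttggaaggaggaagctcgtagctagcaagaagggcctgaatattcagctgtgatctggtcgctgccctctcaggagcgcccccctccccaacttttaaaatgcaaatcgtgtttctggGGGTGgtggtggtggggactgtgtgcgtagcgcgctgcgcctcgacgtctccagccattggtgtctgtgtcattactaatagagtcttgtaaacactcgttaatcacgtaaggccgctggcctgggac
Elf5 upstream start: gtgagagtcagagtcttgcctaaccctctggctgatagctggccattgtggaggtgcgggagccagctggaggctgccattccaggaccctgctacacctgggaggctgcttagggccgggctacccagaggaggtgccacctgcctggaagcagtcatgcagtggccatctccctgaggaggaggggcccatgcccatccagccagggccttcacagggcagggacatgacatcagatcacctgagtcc
Elf5 downstream start: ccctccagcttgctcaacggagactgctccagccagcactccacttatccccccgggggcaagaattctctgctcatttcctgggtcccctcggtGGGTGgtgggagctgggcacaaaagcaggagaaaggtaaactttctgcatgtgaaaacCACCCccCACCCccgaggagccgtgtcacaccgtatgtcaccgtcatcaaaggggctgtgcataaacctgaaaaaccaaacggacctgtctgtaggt
A match is a stretch of letters and not a measured binding site, and no binding data were analysed here.

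Of 3 probe sets for the targeted gene, 1 separated the arrays by a wide margin. At the brightest Klf5 probe set (1451021_a_at), WT clones 1 and 2 read 2398 and 1782 and KO clones 1 and 2 read 34.8 and 49.9. A dimmer Klf5 probe set, 1451739_at, read 102 and 88.6 in WT against 82.6 and 61.0 in KO and did not pass (-0.35, adjusted p = 0.36), and 1430255_at was below the filter with overlapping groups. Values are deposited intensities after quantile normalization, differences are on the scale of log2(intensity + 16), which understates the change of dim genes, and errors are moderated standard errors (SE) from limma with 2 arrays per group. Pou5f1, Sox2 and Nanog, which define ES cells, read from 2327 to 4755 in every clone. Each was lower in both KO clones (-0.30, -0.25 and -0.18), and none passed. Of the 10 pluripotency genes listed, 5 were lower in both KO clones (29.7% of all genes) and 1 higher in both (25.9%). The list of 18 fibroblast markers used was chosen with earlier results of these data known. Of the 18, 16 were above the filter that removes dim probe sets. Of those, 15 rose in KO clones, beside 2.94% of all genes tested. Among the 15, Dcn read 2.14 and 2.90 in WT against 72.0 and 59.1 in KO, so it exceeded the filter only through the KO arrays (named after its values were seen). The summed intensity of all 18 was 5101 and 3200 in WT against 16560 and 16410 in KO. Lum and Fap stayed below the filter. RNA quality, read as the 3′ to 5′ log2 ratio of beta-actin, stood at 0.48 and 0.44 in WT against 0.75 and 0.52 in KO clones 1 and 2, while the same ratio of Gapdh was alike in all 4 arrays (-0.32 and -0.32 in WT against -0.33 and -0.29 in KO). The part of these differences in the results below was not tested. In bulk RNA such as this, fewer cells that express a gene and less of its RNA per cell cannot be told apart.

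No trophectoderm factor on the list passed the threshold in either direction. Of the 20 probe sets, 16, from 8 genes, lay above the filter (a mean over the 4 arrays that corresponds to an intensity of 13.05), and 0 rose and 0 fell (limma, adjusted p under 0.05). Over all 27022 probe sets tested, 2.44% rose and 1.25% fell, 659 and 337 probe sets, a split that became 640 and 1420 after median centring in place of quantile normalization. At an unadjusted p under 0.05 there was 1 of the 16, a Hand1 probe set, beside 20.4% of all. The median difference of the 16 was -0.12 on the log2 scale, beside -0.022 over all tested, and 13 of the 16 differences were negative. That median was -0.23 in the values as deposited and -0.19 after median centring, where all tested probe sets had -0.19 and -0.16, and it was 0.035 without KO clone 1. The 95% confidence intervals of 15 of the 16 lay inside a 2-fold change in either direction on this scale, and the lowest bound of any was -0.97 and the highest 1.13. The KO and WT clones did not overlap for 6 of the 16, 4 lower in both KO clones (28.4% of all probe sets tested) and 2 higher in both (23.9%).

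**Figure D1:**
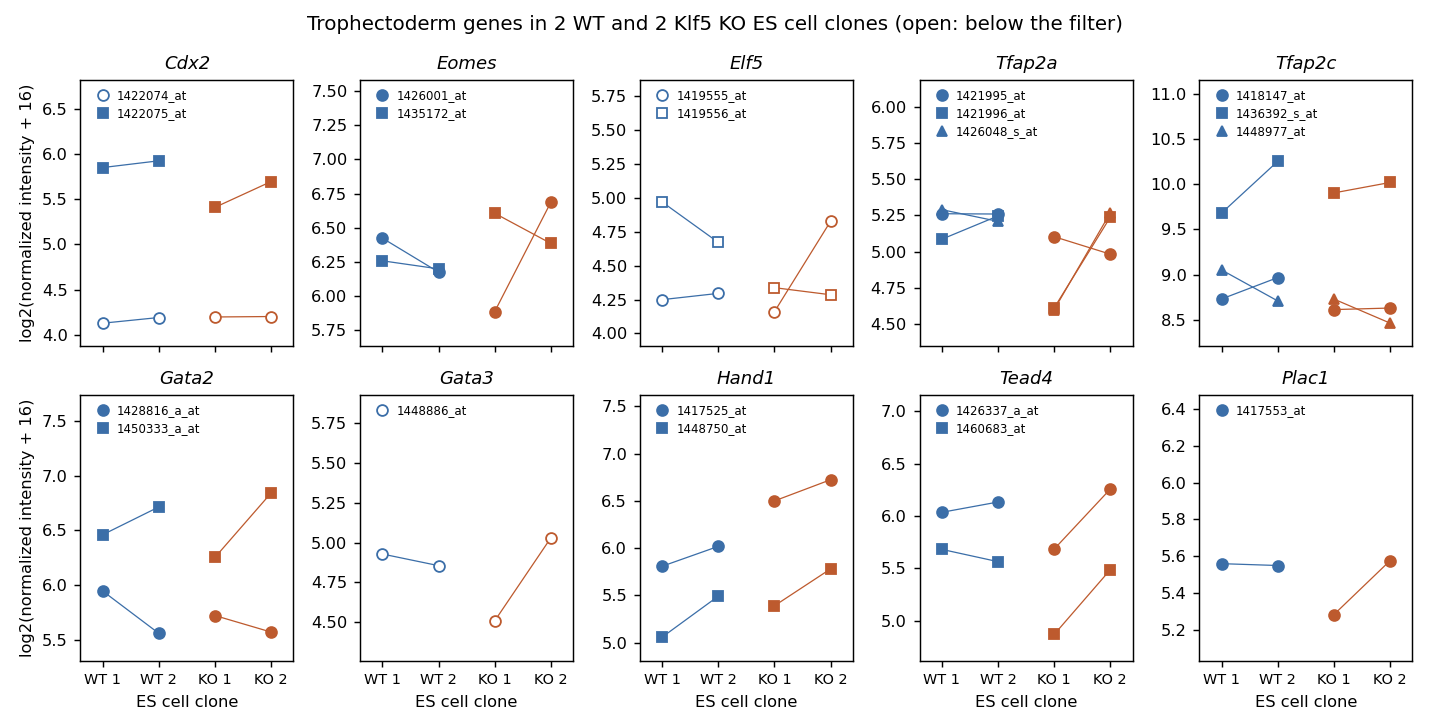
Level of each of the 20 probe sets of the 10 trophectoderm genes in WT clones 1 and 2 (blue) and KO clones 1 and 2 (orange), as log2(normalized intensity + 16), with a scale of its own in each panel and open symbols for probe sets below the filter. The Hand1 probe set 1417525_at is higher in both KO clones, while several others are low in KO clone 1 and near the WT clones in KO clone 2.

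Cdx2, the homeobox factor that specifies the trophectoderm, was read by 2 probe sets. Probe set 1422075_at had 41.9 and 44.9 in WT against 26.6 and 35.9 in KO, with clone 1 given before clone 2 here and below. Both KO clones lay below both WT clones, by 0.34 ± 0.19 on the log2 scale with an interval for KO minus WT of -0.77 to 0.09 (adjusted p = 0.35). The other Cdx2 probe set, 1422074_at, read 1.46 and 2.24 in WT against 2.32 and 2.38 in KO, far under the filter, and was not tested. The Cdx2 relatives Cdx1 and Cdx4 were also below the filter.

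Eomes, a T-box factor needed for trophoblast stem cells, had probe sets that disagreed. At 1426001_at the intensities were 69.8 and 56.2 in WT against 43.0 and 86.9 in KO clones 1 and 2, a difference of -0.014 ± 0.27 (interval -0.62 to 0.59, adjusted p = 0.98), with the KO clones below and above both WT clones. At 1435172_at they were 60.4 and 57.4 in WT against 81.3 and 67.5 in KO, higher in both KO clones by 0.27 ± 0.18 (interval -0.15 to 0.69, adjusted p = 0.45). KO clone 1 was thus the lowest array by the first probe set and the highest by the second. The T-box relatives Tbr1 and Tbx21 lay below the filter.

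Elf5, an ETS factor whose promoter is methylated in ES cells and open in trophoblast, was not above the filter at either of its probe sets, so it was not tested. At 1419556_at it read 15.3 and 9.46 in WT against 4.21 and 3.50 in KO, lower in both KO clones, with a log2 difference of -0.51. At 1419555_at it read 3.01 and 3.63 in WT against 1.88 and 12.3 in KO, where the KO clones lay on either side of WT. Without any filter, 1419556_at had an adjusted p of 0.28 by limma, and 0.422% of all probe sets passed. Of its epithelial relatives, Ehf was below the filter and Elf3 read 179 and 198 in WT against 121 and 141 in KO, a difference of -0.48 ± 0.19 that did not pass (adjusted p = 0.19).

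Tfap2c (AP-2 gamma), which trophoblast shares with germ cells and pluripotent cells, read from 337 to 1204 at its 3 probe sets in the 4 arrays. At 1418147_at Tfap2c had 409 and 485 in WT against 376 and 381 in KO, a difference of -0.23 ± 0.19 (interval -0.65 to 0.19, adjusted p = 0.53), with both KO clones lower. At 1448977_at it had 514 and 403 in WT against 409 and 337 in KO, a difference of -0.28 ± 0.20 (adjusted p = 0.47), and the groups overlapped. At 1436392_s_at, whose suffix marks probes that can match related transcripts, it had 805 and 1204 in WT against 941 and 1021 in KO, a difference of -0.007 ± 0.22 (adjusted p = 0.99). Both KO clones lay between the WT clones there.

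Tfap2a (AP-2 alpha), another AP-2 factor of trophoblast and ectoderm, was dim. Probe set 1421995_at read 22.4 and 22.3 in WT against 18.4 and 15.6 in KO, lower in both KO clones by 0.22 ± 0.18 (adjusted p = 0.53). Probe sets 1421996_at and 1426048_s_at read 17.96 and 21.98, and 23.1 and 21.0, in WT, and both showed a low KO clone 1 (8.42 and 8.21) and a KO clone 2 (21.7 and 22.5) that lay between the WT clones. Their differences, -0.24 ± 0.23 and -0.32 ± 0.24, rested on KO clone 1 and became 0.073 and 0.019 without it. The relatives Tfap2b, Tfap2d and Tfap2e were below the filter.

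Gata2 and Gata3 are zinc finger factors that drive trophoblast genes. Gata2 had 72.1 and 89.1 in WT against 60.3 and 98.7 in KO at 1450333_a_at, and 45.6 and 31.1 in WT against 36.8 and 31.5 in KO at 1428816_a_at. The groups overlapped at both, with differences of -0.040 ± 0.23 (interval -0.57 to 0.49) and -0.11 ± 0.20 (interval -0.56 to 0.35). Gata3 read 14.4 and 12.9 in WT against 6.76 and 16.6 in KO, with a mean below the filter, and was not tested. Among the other GATA factors, Gata4 and Gata6, which mark primitive endoderm, had 0.081 ± 0.20 and 0.21 ± 0.27, and Gata1 had 0.024, none past the threshold. The dimmer tested Gata6 probe set, 1425463_at, went the other way, lower in both KO clones (-0.43 ± 0.19, adjusted p = 0.24 by limma). Gata5 was below the filter.

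Hand1, a basic helix-loop-helix factor of trophoblast giant cells and also of extraembryonic and lateral mesoderm, had the difference nearest to the threshold. At 1417525_at it read 40.1 and 48.9 in WT against 74.5 and 89.7 in KO. Both KO clones were higher, by 0.70 ± 0.19 (1.62-fold on the scale of intensity + 16, interval 0.27 to 1.13). The unadjusted p was 0.0053 and the adjusted p 0.085 by limma. At 1448750_at it read 17.3 and 28.99 in WT against 25.9 and 38.9 in KO, a difference of 0.31 ± 0.22 (adjusted p = 0.47) with overlapping groups. The first of these passed only when the filter was raised to the 60th percentile of mean log2 (adjusted p = 0.043), among the 12 alternatives, over which the adjusted p ran up to 0.64. Its difference stayed between 0.56 and 0.84 with any array left out. In the same KO arrays 15 of 16 tested fibroblast markers rose, beside 2.94% of all genes tested. The part of this in the Hand1 difference was not tested. The Hand1 relative Hand2 was below the filter.

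**Figure D2:**
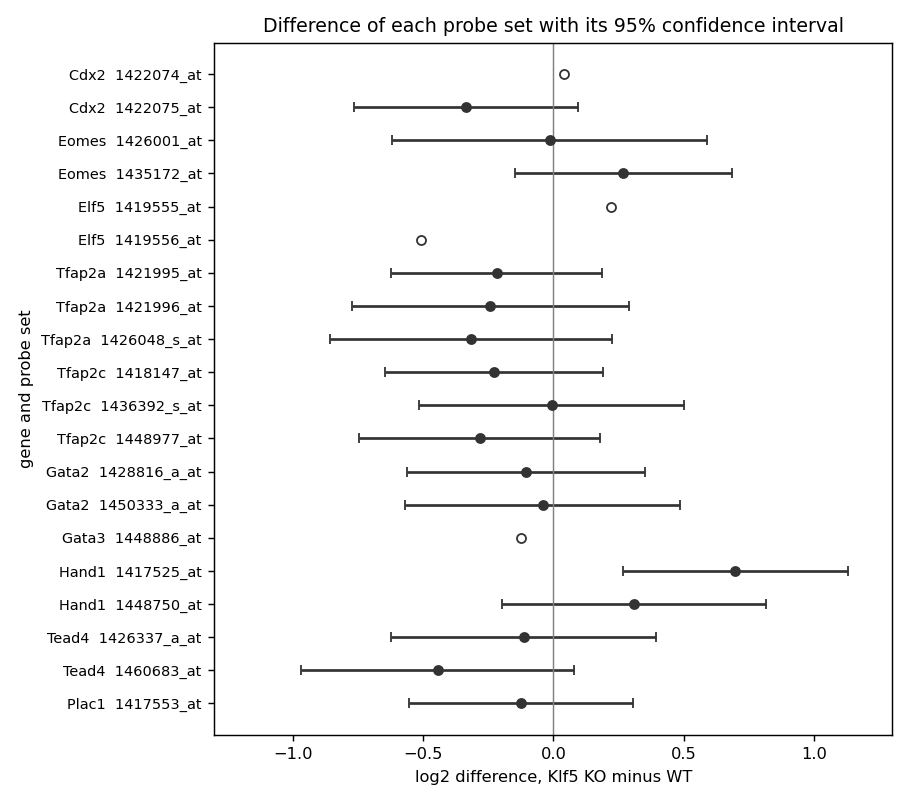
Log2 difference, KO minus WT, of the 20 probe sets, with the 95% confidence interval from limma for the 16 tested (filled) and the value alone for the 4 below the filter (open). The interval of Hand1 1417525_at, 0.27 to 1.13, lies above 0, and the other 15 intervals include 0.

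Tead4, the TEAD factor required for the trophectoderm, read 49.6 and 54.2 in WT against 35.4 and 60.5 in KO at 1426337_a_at, a difference of -0.11 ± 0.22 (interval -0.62 to 0.39, adjusted p = 0.82) with overlapping groups. At 1460683_at it read 35.3 and 31.3 in WT against 13.3 and 28.9 in KO, lower in both KO clones by 0.44 ± 0.23 (interval for KO minus WT -0.97 to 0.08, adjusted p = 0.32), most of it in KO clone 1. Without that clone the differences were 0.18 and -0.14. The relatives Tead1, Tead2 and Tead3 had -0.086, -0.18 and -0.070, none past the threshold. A dimmer Tead1 probe set, 1423434_at, had 0.18 and did not pass either. Plac1, an X-linked gene of the placenta, read 31.2 and 30.9 in WT against 23.0 and 31.7 in KO, a difference of -0.13 ± 0.19 (interval -0.55 to 0.30, adjusted p = 0.76).

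KO clone 1 was the lowest of the 4 arrays for 11 of the 20 probe sets, beside 29.8% of all probe sets, and for 9 of the 16 tested, beside 32.7%. The median of KO clone 2 minus KO clone 1 over the 20 was 0.29 on the log2 scale, beside 0.012 over all probe sets, while that of WT clone 2 minus WT clone 1 was 0.022. For 13 of the 20 the gap between the KO clones was wider than that between the WT clones (51.0% of all probe sets). For 15 of the 20 the difference between genotypes was smaller than the wider of these gaps between clones, beside 68.0% of all probe sets. With KO clone 2 left out the median difference of the tested probe sets was -0.26, against the 0.035 without KO clone 1. KO clone 1 also had the highest beta-actin 3′ to 5′ ratio, 0.75, and the lowest Gapdh ratio, -0.33, in a narrow range; their part in these values was not tested.

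**Figure D3:**
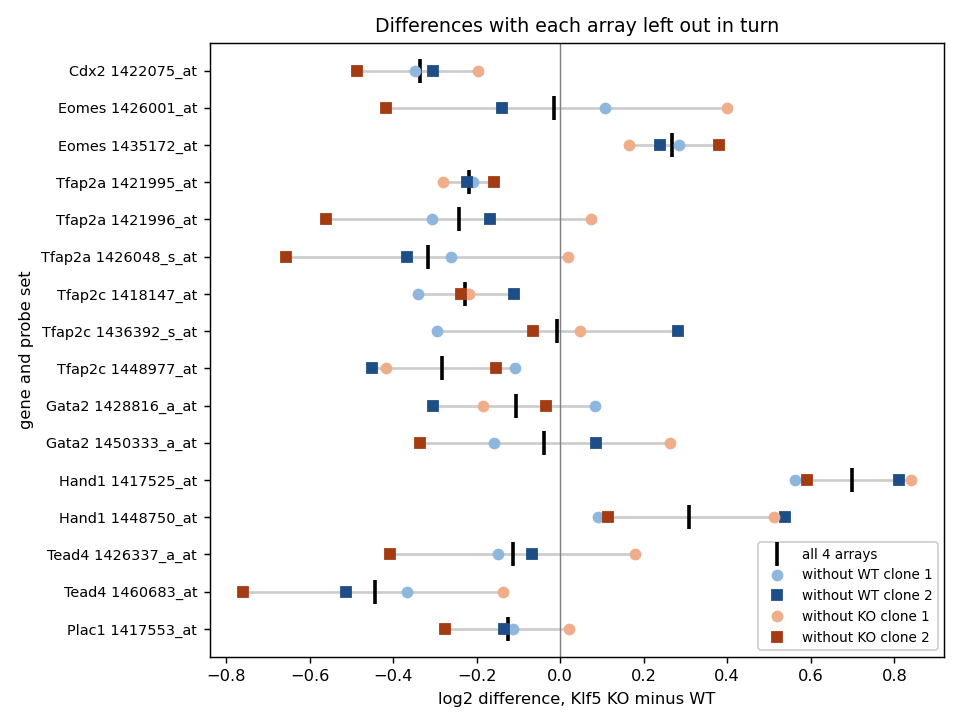
Log2 difference, KO minus WT, of the 16 tested probe sets with all 4 arrays (black bar) and with each array left out (blue, a WT clone; orange, a KO clone). Without KO clone 1 the points of Eomes 1426001_at, Gata2 1450333_a_at, Tead4 1426337_a_at, Tfap2a 1421996_at and 1426048_s_at, Tfap2c 1436392_s_at and Plac1 lie above 0. Those of Eomes 1435172_at and both Hand1 probe sets lie above 0 in every case.

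Other genes of the lineage were read from lists, with 1 probe set per gene, beside 2.94% of 13023 genes that rose, 1.34% that fell and a median of -0.024 over all. All lists were read in the arrays whose fibroblast markers differed as given above. The 8 tested members had a median of -0.077 on this basis. Regulators of trophoblast stem cells had a median of -0.43: of 17 tested, 0 rose, 1 fell and 16 did not pass, and 10 were lower in both KO clones (29.7% of all genes) and 2 higher in both (25.9%). Bmp4, a growth factor of the ES cell and trophectoderm stage, fell by 1.17 ± 0.21, from 774 and 1021 in WT to 415 and 358 in KO (adjusted p = 0.018), a call that held without WT clone 1 but not in the other leave-outs (adjusted p = 0.094 when WT clone 2, 0.10 when KO clone 1 and 0.092 when KO clone 2 was dropped). Ascl2, a basic helix-loop-helix factor of the ectoplacental cone, had 93.7 and 113 in WT against 16.2 and 69.8 in KO at its brightest probe set (-1.18 ± 0.38, adjusted p = 0.13). At 1422396_s_at Ascl2 had 63.1 and 119 in WT against 23.1 and 35.0 in KO and passed (-1.21 ± 0.27, adjusted p = 0.046), though among the leave-outs only without WT clone 1 (highest adjusted p = 0.27), and at 1432018_at it had -0.64 (adjusted p = 0.097). All 3 Ascl2 probe sets were lower in both KO clones. The highest values on this list were Cited1, a transcriptional co-regulator of placental development, at 0.53 ± 0.21 and Esx1, an X-linked homeobox gene of trophoblast, at 0.45 ± 0.23, neither past the threshold.

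Of 14 genes of the trophectoderm as an epithelium, 0 rose, 1 fell and 13 did not pass (median -0.39). Of these, 9 were lower in both KO clones (29.7% of all genes) and 4 higher in both (25.9%). Krt18, a simple epithelial keratin, had 1306 and 1180 in WT against 597 and 726 in KO and fell by 0.90 ± 0.19 (adjusted p = 0.038), a call that did not hold in any of the 4 leave-outs, in which the adjusted p ran from 0.076 to 0.21. Krt19, of the same class, had 152 and 194 in WT against 59.9 and 101 in KO (-0.99 ± 0.24, adjusted p = 0.061). Krt8, the partner of Krt18, was chosen for mention after seeing its values and had -0.63 ± 0.20 (adjusted p = 0.13). The tight junction gene Cldn4 had 225 and 252 in WT against 469 and 370 in KO (0.77 ± 0.20, adjusted p = 0.070), and Dab2, an endocytic adaptor of extraembryonic tissues, had 0.41 ± 0.19 (adjusted p = 0.26). The other tested Dab2 probe sets, 1423805_at and 1430604_a_at, had -0.053 and 0.076 and did not pass either.

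For 4 genes of the trophoblast and Hippo pathway lists that did not pass at the probe set used for the list, another probe set passed, and they are named for that reason after their values were seen. Beside Ascl2, they were Id2, an inhibitor of helix-loop-helix factors (1422537_a_at, -0.86, adjusted p = 0.039, against -0.47 and adjusted p = 0.21 at the one used), and Dsp, the desmosome protein desmoplakin (1427610_at, -1.27, adjusted p = 0.016, against -0.81 and adjusted p = 0.051). The fourth was Lats2, a Hippo pathway kinase (1439441_x_at, 0.80, adjusted p = 0.047, against 0.019 and adjusted p = 0.97 at 1419678_at). This Lats2 probe set was the brighter, at 49.1 and 47.4 in WT against 102 and 90.1 in KO, but its suffix marks probes that can match other transcripts, so it was not the one used. The calls of Id2 and Lats2 held in 0 of the 4 leave-outs, and that of Dsp held without WT clone 1 or KO clone 2 and not without WT clone 2 (adjusted p = 0.053) or KO clone 1 (0.11).

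Genes of later trophoblast and placenta passed in both directions. Of 18 genes listed, 12 had a probe set with a single gene symbol, and 9 of those were tested. Prl3d1, Prl2c2, Prl3b1, Syna, Rtl1 and H19 had no such probe set and were not read. Among the 9 tested, 1 rose, 1 fell and 7 did not pass (median 0.34). Lgals1, a galectin that fibroblasts also make, rose by 1.04 ± 0.18, from 3028 and 2864 to 6083 and 6035 (adjusted p = 0.016), and Peg10, an imprinted retrotransposon-derived gene of the placenta, fell by 1.07 ± 0.19, from 118 and 127 to 43.1 and 57.6 (adjusted p = 0.020). The Lgals1 call held only in the leave-out of WT clone 1 (highest adjusted p = 0.12). The Peg10 call held in 0 of the 4 leave-outs, at an adjusted p between 0.052 and 0.14. Flt1, a receptor of the VEGF family, had 0.72 ± 0.19 and Cdkn1c, an imprinted cell cycle inhibitor, had -0.70 ± 0.21, neither past the threshold. Markers of differentiated trophoblast cells, Tpbpa of the spongiotrophoblast and the placental cathepsins Ctsq and Cts7, were below the filter, at 0.251 to 8.47 in all 4 arrays, and are named after their values were seen.

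The Hippo pathway controls the co-activators of Tead4. Of 17 genes of this list tested, 3 rose, 0 fell and 14 did not pass (median 0.019). The genes that rose are known targets of YAP and TEAD factors: Ankrd1, a muscle ankyrin repeat protein, Ccn1 (Cyr61) and Ccn2 (Ctgf), both secreted matricellular proteins, of which Ccn2 was named because the count was small. Ankrd1 had 52.4 and 19.9 in WT against 181 and 206 in KO (2.08 ± 0.29, adjusted p = 0.006), Ccn1 173 and 151 in WT against 561.5 and 553 in KO (1.69 ± 0.18, adjusted p = 0.0016), and Ccn2 1009 and 639 in WT against 2165 and 2228 in KO (1.43 ± 0.23, adjusted p = 0.014). Every one of the 4 Ccn1 and 2 Ankrd1 probe sets passed, and Ccn1 1438133_a_at and Ankrd1 1420992_at passed with any array left out. The brighter Ankrd1 probe set did not pass without KO clone 1 (adjusted p = 0.082) or KO clone 2 (0.067), and Ccn2 passed only without WT clone 1 (adjusted p up to 0.12). Fibroblasts express these genes too, and the summed fibroblast marker intensity in the same KO arrays was 16560 and 16410; its part in the rise was not tested. Among other genes of the pathway that did not pass, Yap1 had -0.30 ± 0.19 (adjusted p = 0.42), its paralog Wwtr1 (TAZ) 0.74 ± 0.18 (adjusted p = 0.058; named after its values were seen) and Amotl2, a junctional binding partner of YAP, -0.61 ± 0.21 (adjusted p = 0.15).

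**Figure D4:**
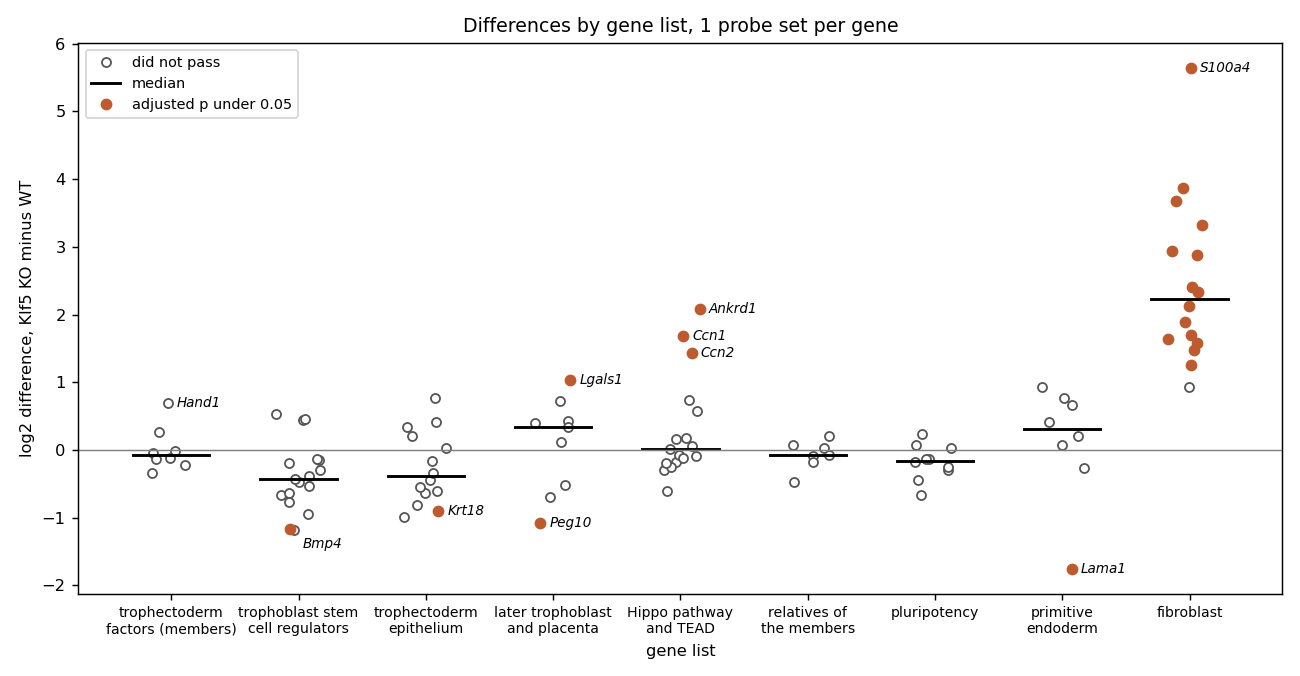
Log2 difference, KO minus WT, of every tested gene in 9 lists (1 probe set per gene), filled where limma's adjusted p was under 0.05, with a bar at each list's median. The 8 tested trophectoderm members hold no filled point and have a median of -0.077. In the Hippo list 3 genes, known targets of YAP and TEAD factors, are filled and higher in KO, as are 15 of 16 fibroblast genes.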

How the data were processed

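RNA of 4 ES cell clones was labelled with biotin for Affymetrix GeneChip arrays, per the labels. The table has 45101 rows (64 of them controls) of intensities as deposited, on a linear scale; the sources used here do not give how the authors summarised, background-corrected or scaled them. The deposited arrays differed in trimmed mean (2% removed at each end) from 138 to 227, so they were quantile normalized and log2(intensity + 16) was taken. Controls and probe sets below the 40th percentile of mean log2 were left out, and the 27022 others were fitted with limma 3.58.1 (R 4.3.3; lmFit, then eBayes, with 2 residual degrees of freedom and 6.87 from the prior), with Benjamini-Hochberg adjustment over all of them and a threshold of 0.05. The fit was tested on simulated data. The fit was repeated with other pseudocounts (1, 64), unfiltered, with a 60th percentile filter, without normalization, with median centring, with a variance trend, blocked on replicate number and with every array dropped in turn; lists were also read with probe sets averaged per gene.

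The platform annotation gave 34945 non-control rows 1 gene symbol, 932 several and 9160 none; only the first were named. A listed gene was read at its probe set of highest mean (one ending in _x_at was used where it was the sole one), and 2 listed genes under newer symbols (Ccn1, Ccn2). Named were all members, their family relatives, Klf5, Pou5f1, Sox2, Nanog and, per trophoblast or Hippo list, up to 2 genes each way, those past the threshold first, then by size; exceptions are marked, and Lum, Fap and Lama1 are named as parts of small counts, after their values were seen. Members and lists were chosen with earlier results of these data known. Pluripotency, primitive endoderm and paralog lists served as checks.
Of 10 pluripotency genes tested, 0 rose and 0 fell (limma; 1 at an unadjusted p under 0.05), of 8 primitive endoderm genes 0 rose and 1 fell (Lama1), and of 7 relatives of the members 0 rose and 0 fell (1 at an unadjusted p under 0.05).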

Additional observations from a re-analysis of the deposited data

How the results depend on the processing

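The direction of 171 of 184 member values under 12 alternative settings matched that of the values reported, on the same side of the threshold. Of the others, 12 turned sign and 1 (Hand1 1417525_at) passed. The unfiltered fit, the higher filter, the variance trend and the replicate block leave each difference as it was. In those settings direction could not turn, so the 171 overstates how far direction was tested. No member passed under any alternative except 1 with the filter at the 60th percentile, and Eomes 1426001_at turned to 0.003 with a pseudocount of 64. Leaving out an array, the differences ran from -0.42 to 0.40 for Eomes 1426001_at, from -0.56 to 0.073 and from -0.66 to 0.019 for Tfap2a 1421996_at and 1426048_s_at, from -0.295 to 0.28 for Tfap2c 1436392_s_at, from -0.305 to 0.084 and from -0.34 to 0.26 for Gata2 1428816_a_at and 1450333_a_at, from -0.41 to 0.18 for Tead4 1426337_a_at and from -0.28 to 0.022 for Plac1.

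Probe sets past the threshold numbered 996, with 189 for a pseudocount of 1, 2060 for 64, 190 with no filter, 332 with no between-array normalization, 2060 with median centring, 1955 with a variance trend and 203 to 653 with an array left out. Median centring gave 640 higher and 1420 lower, against 659 and 337, and it and the values without normalization moved the median of all probe sets to -0.16 and -0.19.
Of trophoblast stem cell regulators 1 passed, against 0 with a pseudocount of 1 or no filter, 2 with a pseudocount of 64, without normalization, with a trend or with the replicate block, 5 with centring, 3 with the mean of probe sets and 0 to 3 with an array left out. Of epithelial genes 1 passed, against 0 with a pseudocount of 1, no filter, no normalization or any array left out, 6 with a pseudocount of 64, centring or a trend, 4 with the higher filter, 5 with the mean of probe sets and 3 with the replicate block. Of later trophoblast genes 2 passed, against 0 with a pseudocount of 1, no filter or no normalization, 4 with centring and 0 to 1 with an array left out. Of Hippo genes 3 passed, against 1 with a pseudocount of 1 or no filter and 2 without normalization. The count was 4 with a pseudocount of 64, the higher filter, centring or a trend. Pluripotency genes gave 1 with a pseudocount of 64, centring or a trend, against 0. Fibroblast genes gave 9 with a pseudocount of 1 or no filter, 13 without normalization, 14 with the higher filter and 16 with a pseudocount of 64 or a trend, against 15. Fewer genes of the fibroblast and Hippo lists passed when either KO clone was left out. Primitive endoderm genes gave 3 with a pseudocount of 64 or a trend, 2 with the higher filter and 1 to 2 with an array left out, against 1. The cause was not tested.

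Clones with the same number deviated together with a correlation of 0.055 over the tested probe sets. The labels give them a shared number and nothing more, and this value cannot show whether they also shared a culture or batch. The replicate block gave 891 probe sets higher and 499 lower, and 0 members. With 2 arrays per group the number of arrays limits precision, and dim probe sets carry little signal over background.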
